A study of Mus musculus with 6 samples.

Results

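The feedback inhibitors A20 and ZFP36, with the proteins that work beside them, were followed in mouse AML cells with the *Phf6* allele intact or targeted by Cre. The 10 genes were chosen by name, as known feedback inhibitors and their family members, out of 54532 genes in the deposited table: *Tnfaip3*, *Tnip1*, *Tnip2*, *Tnip3* and *Cyld* of the ubiquitin branch, *Zfp36*, *Zfp36l1*, *Zfp36l2* and *Zc3h12a* of the mRNA decay branch, and *Tnfaip2*, which shares only the name of a TNF-induced gene. *Tnfaip2* is counted with the inhibitor genes below, although it belongs to neither branch. All 10 genes and the lists below were chosen with earlier results of these data known, so counts of called genes among them are descriptive. RNA was sequenced from GFP-sorted bone marrow leukemia cells of male mice, with 3 libraries of *WT Phf6,RE9a* cells (*Phf6* fl/y, replicates 1, 2 and 3) and 3 of *VC Phf6,RE9a* cells (Vav1-Cre;*Phf6* fl/y, replicates 11, 12 and 13). Both groups carried the floxed *Phf6* allele and the RUNX1-ETO9a (RE9a) oncogene, delivered with GFP by a retrovirus to fetal liver cells that were then passed serially through male recipients, and Vav1-Cre, which is active in blood cells, was present in the *VC Phf6,RE9a* group alone. Whether the 3 libraries within each group stem from separate leukemias is not stated in the labels, and the p-values measure only the spread between these libraries, which may be technical.

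NF-κB and stress kinases turn on inflammatory genes, and among these genes are inhibitors that end the response. A20, encoded by *Tnfaip3*, edits the ubiquitin chains that carry the signal from TNF and Toll-like receptors to the NF-κB kinase, the TNIP proteins bind A20 and ubiquitin, and CYLD removes ubiquitin chains from the same signaling complexes. ZFP36 and its paralogues bind AU-rich elements of cytokine mRNAs and recruit the deadenylase that shortens their tails, and Regnase-1, encoded by *Zc3h12a*, cuts such mRNAs. In hematopoietic cells these proteins limit cytokine production, and loss of several of them causes inflammation in mice.

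Stretches of the promoters are shown with matches to the motifs of NF-κB (κB), AP-1 and serum response factor (CArG). Whether these motifs have a part in the differences between the groups was not tested. RefSeq promoter windows on GRCm38.p6, from 250 bases before to 50 bases after the start site, were at hand for 9 of the 10 genes, with 2 windows for *Tnfaip3*. *Zfp36l2* had none. Capitals mark motif matches in 30-base stretches, written 5′ to 3′ on the strand of the gene:
Tnfaip3 chr10:19015521-19015550 minus strand: caggTGACTCAcgcgGGGACACCCCggggc
Tnfaip3 chr10:19015403-19015432 minus strand: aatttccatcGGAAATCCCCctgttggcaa
Tnip1 chr11:54962978-54963007 minus strand: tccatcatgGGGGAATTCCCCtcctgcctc
Cyld chr8:88696863-88696892 plus strand: ttgaccgagcGGAAAGTCCCttcagccagc
Tnfaip2 chr12:111442627-111442656 plus strand: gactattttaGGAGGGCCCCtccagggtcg
Tnip3 chr6:65590334-65590363 plus strand: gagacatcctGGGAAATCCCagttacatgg
Zfp36 chr7:28379267-28379296 minus strand: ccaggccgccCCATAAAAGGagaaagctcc
Zfp36l1 chr12:80113124-80113153 minus strand: gaccgcatggcTGATTCAacctcagtgtca

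The first *Tnfaip3* stretch held an AP-1 match and a κB match, between 136 and 116 bases before the start site, and the second held another κB match at 12 to 3 bases before it. The capitals of *Tnip1*, *Cyld*, *Tnfaip2* and *Tnip3* mark κB, those of *Zfp36* mark CArG and those of *Zfp36l1* mark AP-1. The *Tnip1* run holds 3 overlapping κB matches in 12 bases. Both strands were searched for κB and CArG by their consensus, for AP-1 as TGANTCA and for the CRE as TGACGTCA. Counted per gene, with a match in any of its windows, κB was found in 5 of the 9 genes and in 9.55% of the 27025 genes with a window, AP-1 in 2 of the 9 and 8.97% of all, CArG in 1 of the 9 and 1.81% of all, and the CRE in 0 of the 9 and 2.03% of all. The κB matches lay in the windows of genes that were lower (*Tnfaip3*, *Tnip1*), higher (*Tnfaip2*) and not called (*Cyld*) with *Phf6* loss, and of *Tnip3*, which was not tested. The windows of *Tnip2* and *Zc3h12a*, both lower, held no match to any of these motifs. RefSeq start sites are not those of GENCODE M21 for every gene: of the 250 bases before the start site, GENCODE exons cover all 250 in *Zfp36*, 192 in *Tnfaip2* and 110 in the *Tnfaip3* window shown. A match is a run of letters and not a known binding site.

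The upstream windows of *Tnip1* and *Cyld*, which lie outside annotated exons, are given whole to show the bases around these matches, with κB in capitals. The *Tnip1* window is chr11:54962941-54963190 on the minus strand and the *Cyld* window is chr8:88696778-88697027 on the plus strand, each running 5′ to 3′ toward the start site:
Tnip1: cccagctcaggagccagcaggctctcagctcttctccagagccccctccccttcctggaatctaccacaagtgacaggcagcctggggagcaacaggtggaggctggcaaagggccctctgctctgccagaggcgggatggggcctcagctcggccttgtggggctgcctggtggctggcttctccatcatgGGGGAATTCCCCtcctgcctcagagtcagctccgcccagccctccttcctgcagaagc
Cyld: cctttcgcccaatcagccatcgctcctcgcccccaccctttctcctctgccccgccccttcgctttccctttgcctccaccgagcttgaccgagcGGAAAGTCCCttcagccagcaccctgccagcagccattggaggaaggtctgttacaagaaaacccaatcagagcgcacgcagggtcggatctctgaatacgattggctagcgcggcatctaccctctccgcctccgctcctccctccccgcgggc

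Total counts per library ran from 15675358 to 16817994. Of 54532 genes, 14169 had enough counts to be tested with edgeR's quasi-likelihood test on TMM-scaled counts, with Benjamini-Hochberg adjustment over all of them and a threshold of 0.05. *Phf6* itself had 1044, 827 and 1142 counts in the libraries labelled WT and 388, 314 and 331 in those labelled VC, so every *VC Phf6,RE9a* library was the lower. Many genes differed between the groups: 44.2% of all genes tested were called, 22.7% as lower and 21.5% as higher in *VC Phf6,RE9a* cells. By their median, all genes tested stood at a log2 fold change of 0.013. With counts scaled by library size alone, which moved that median to 0.16, the calls went from 3213 lower and 3047 higher to 2474 lower and 4048 higher. The cell markers differed as well. Transcripts of maturing granulocytes and monocytes were higher for 11 of 12 genes tested, with a summed level of 171 to 510 CPM (counts scaled to the size of the library) in *WT Phf6,RE9a* and 1020 to 3823 CPM in *VC Phf6,RE9a* libraries. Those of erythroid cells were higher for 8 of 8 (1528 to 2319 against 5185 to 5986 CPM), those of mast cells and basophils were lower for 7 of 8 (16970 to 27226 against 4690 to 5167 CPM), and those of B cells were higher for 5 of 5 tested of 8 (2.78 to 8.41 against 26.2 to 74.3 CPM). Of the macrophage markers 2 of 8 were higher, which is near the 21.5% of all genes tested. The T cell markers had 1 gene tested, which was higher. Summed levels of the macrophage and T cell markers were at most 70.9 and 10.6 CPM in any library. B and T cell markers were rare in *WT Phf6,RE9a* libraries and could pass the count filter through the *VC Phf6,RE9a* group alone. Their counts of higher genes therefore decide nothing. With at least 10 counts in every library, 1 B cell marker and 0 T cell markers were tested. The leukemia cells of both groups expressed *Kit*, *Cd34* and *Fcgr3*, each lower in the *VC Phf6,RE9a* group, where *Itgam* and *Mpo* were called higher. Of these 2 higher calls, 0 were left without *WT Phf6,RE9a* replicate 1, without *VC Phf6,RE9a* replicate 11 or at an adjusted p under 0.01, and 1 without *WT Phf6,RE9a* replicate 2 or without *VC Phf6,RE9a* replicate 12. In bulk RNA, fewer cells of a type and less RNA per cell cannot be told apart, and the part of cell makeup in the results was not tested.

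Of the 9 inhibitor genes tested, 8 were called, against 44.2% of all genes tested. Lower in *VC Phf6,RE9a* cells were 7, against 22.7% of all genes, and 1 was higher, against 21.5%, while *Cyld* was not called. The 1 higher gene was *Tnfaip2*, which belongs to neither inhibitor branch. At a change of at least 2-fold the counts were 5 lower (11.5% of all genes) and 1 higher (9.95%). In 7 genes all *VC Phf6,RE9a* libraries were under all those of *WT Phf6,RE9a* cells, which held for 28.4% of all genes tested, and in *Tnfaip2* every *VC Phf6,RE9a* library lay above, which held for 28.9%. The median log2 fold change of the 9 genes was -1.18. In *WT Phf6,RE9a* cells several inhibitor genes were among the most abundant mRNAs. By mean FPKM (fragments scaled to the length of the gene and the size of the library) *Zfp36* ranked 30 of 54532 genes, *Tnfaip3* 100, *Zfp36l2* 116 and *Zfp36l1* 266. In *VC Phf6,RE9a* cells their ranks were 166, 467, 273 and 633.

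**Figure D1:**
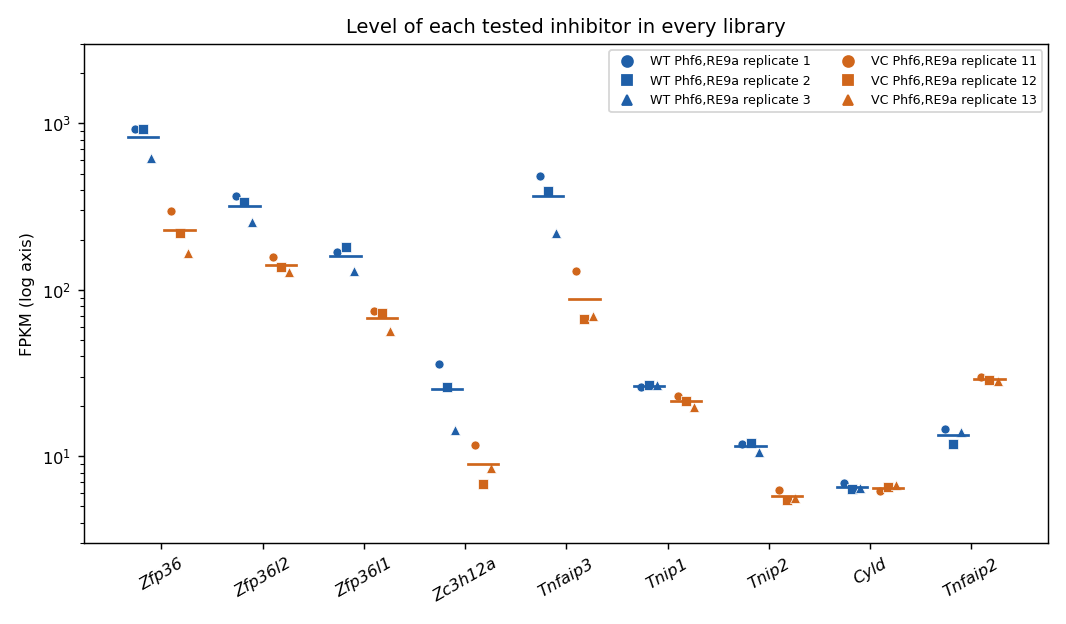
FPKM of the 9 tested inhibitor genes in every library on a log axis, with *WT Phf6,RE9a* libraries in blue, *VC Phf6,RE9a* libraries in orange and the group mean as a line. *Zfp36*, *Zfp36l2*, *Zfp36l1*, *Zc3h12a*, *Tnfaip3*, *Tnip1* and *Tnip2* lie lower in every *VC Phf6,RE9a* library, *Cyld* overlaps, and *Tnfaip2* lies higher.

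**Figure D2:**
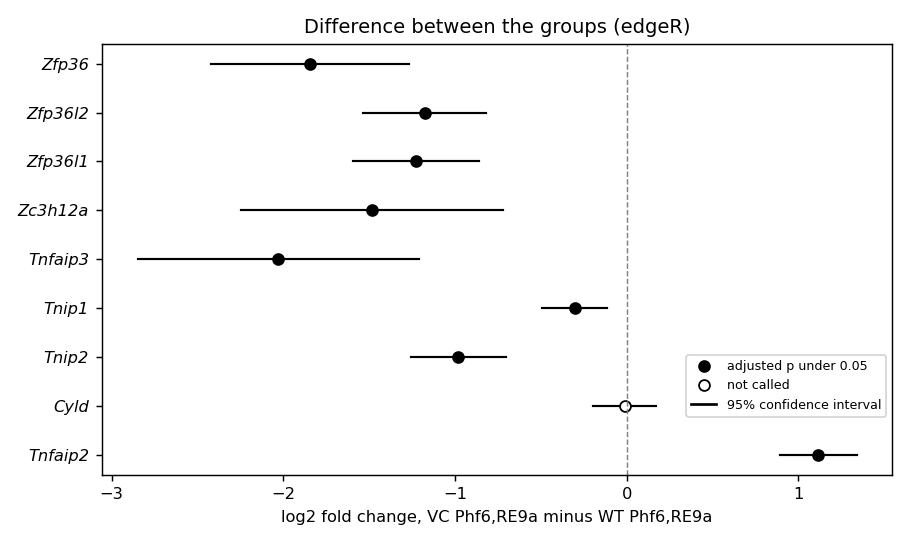
Log2 fold change of each tested inhibitor gene, *VC Phf6,RE9a* minus *WT Phf6,RE9a*, as a point with its 95% confidence interval from edgeR. Filled points passed an adjusted p of 0.05. *Tnfaip3* has the lowest estimate, at -2.03, and the interval of *Cyld* spans 0.

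*Tnfaip3*, on chromosome 10 of GRCm38 from 19000910 to 19015657 on the minus strand, encodes A20. Its FPKM was 480, 395 and 219 in *WT Phf6,RE9a* and 130, 67.1 and 69.3 in *VC Phf6,RE9a* libraries. Replicate 3 was the lowest *WT Phf6,RE9a* library and replicate 11 the highest *VC Phf6,RE9a* library, and the groups did not overlap. The mean fell from 365 ± 133 to 88.8 ± 35.6 (SD, n = 3), which was 4.08-fold lower in edgeR's fit (log2 fold change -2.03, SE 0.35, adjusted p = 0.00302). With each library left out in turn the log2 fold change lay between -2.40 and -1.79.

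The TNIP proteins bind A20 and link it to its substrates. *Tnip1* (chromosome 11, 54910785 to 54962917, minus strand) encodes ABIN-1. It stood at 26.05, 26.87 and 27.02 FPKM in *WT Phf6,RE9a* and 22.9, 21.5 and 19.9 FPKM in *VC Phf6,RE9a* libraries. The *WT Phf6,RE9a* libraries were close to each other, and all 3 *VC Phf6,RE9a* libraries lay under them by a small margin. The change was 1.23-fold (log2 fold change -0.30, SE 0.082, adjusted p = 0.0192 from edgeR) and was no longer called without *VC Phf6,RE9a* replicate 12 (adjusted p = 0.0686) or replicate 13 (adjusted p = 0.0846), or when counts were scaled by library size alone (log2 fold change -0.16, adjusted p = 0.203). *Tnip2* (chromosome 5, 34496087 to 34513991, minus strand) encodes ABIN-2, which also holds the kinase TPL2. It had 11.8, 12.1 and 10.6 FPKM in *WT Phf6,RE9a* against 6.25, 5.47 and 5.63 FPKM in *VC Phf6,RE9a* libraries, so the groups stood well apart. The change was 1.97-fold (log2 fold change -0.98, SE 0.12, adjusted p = 0.000571 from edgeR). *Tnip3* (chromosome 6, 65525313 to 65634040, plus strand), which encodes ABIN-3, was close to the limit of detection, with 3, 7 and 8 counts in *WT Phf6,RE9a* and 3, 0 and 1 counts in *VC Phf6,RE9a* libraries. It had too few counts to be tested, and a count of 0 in replicate 12 allows up to 0.175 CPM, which covers counting error only.

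*Cyld* (chromosome 8, 88697028 to 88751945, plus strand) encodes a deubiquitinase of the same signaling complexes. It stood at 6.96, 6.33 and 6.42 FPKM in *WT Phf6,RE9a* and 6.18, 6.52 and 6.71 FPKM in *VC Phf6,RE9a* libraries. The groups overlapped. The log2 fold change of -0.012 (SE 0.080) was not called (edgeR, adjusted p = 0.917), and its 95% confidence interval spans a level in *VC Phf6,RE9a* of 0.872 to 1.13 times that in *WT Phf6,RE9a* cells.

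Among the genes of mRNA decay, *Zfp36* (chromosome 7, 28376784 to 28380253, minus strand) encodes tristetraprolin. Its FPKM was 930, 925 and 616 in *WT Phf6,RE9a* and 300, 218 and 167 in *VC Phf6,RE9a* libraries. Again replicate 3 was the lowest of its group and replicate 11 the highest of its group, without overlap. The mean went from 824 ± 180 to 228 ± 66.9 FPKM (SD, n = 3), and the change was 3.59-fold (95% confidence interval for the log2 fold change -2.42 to -1.27, adjusted p = 0.000944 from edgeR). The deposited length of *Zfp36* is its whole span of 3470 bases with no intron removed, which sets the scale of its FPKM.

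*Zfp36l1* and *Zfp36l2* encode the paralogues of ZFP36, which act on similar AU-rich elements and are known for roles in blood cell development. *Zfp36l1* (chromosome 12, 80107754 to 80113013, minus strand) had 168, 182 and 129 FPKM in *WT Phf6,RE9a* and 74.4, 72.4 and 56.4 FPKM in *VC Phf6,RE9a* libraries. *Zfp36l2* (chromosome 17, 84183931 to 84187947, minus strand) had 366, 339 and 256 FPKM in *WT Phf6,RE9a* and 157, 137 and 128 FPKM in *VC Phf6,RE9a* libraries. Neither gene's groups overlapped, and replicate 3 was again the lowest *WT Phf6,RE9a* library of both. *Zfp36l1* was 2.34-fold lower (log2 fold change -1.23, SE 0.16, adjusted p = 0.000750 from edgeR) and *Zfp36l2* 2.26-fold lower (log2 fold change -1.18, SE 0.15, adjusted p = 0.000803).

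The 3 paralogues fell unequally in their point estimates. *Zfp36* made up 63.0% ± 1.28 of their summed FPKM in *WT Phf6,RE9a* libraries and 51.7% ± 4.49 (SD, n = 3) with *VC Phf6,RE9a*, and *Zfp36l2* went from 24.7% ± 1.09 to 32.7% ± 3.49. These shares depend on the deposited lengths, which are the whole span for *Zfp36* alone. The lengths cover 2990 of 5260 bases of *Zfp36l1* and 3530 of 4017 bases of *Zfp36l2*. The summed FPKM was 1464, 1446 and 1001 in *WT Phf6,RE9a* and 531, 427 and 351 in *VC Phf6,RE9a* libraries. The log2 ratio of *Zfp36* to *Zfp36l2* was 1.34, 1.45 and 1.27 in *WT Phf6,RE9a* and 0.93, 0.67 and 0.38 in *VC Phf6,RE9a* libraries, and that of *Zfp36* to *Zfp36l1* was 2.47, 2.35 and 2.25 against 2.01, 1.59 and 1.57. In both ratios all *VC Phf6,RE9a* libraries lay under all *WT Phf6,RE9a* libraries, with differences of -0.69 and -0.63. The 2-sided exact permutation test gave p = 0.1 for each, the smallest that 3 libraries against 3 can reach, and 0.133 after adjustment over 4 ratios, so neither could pass the threshold in this design.

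**Figure D3:**
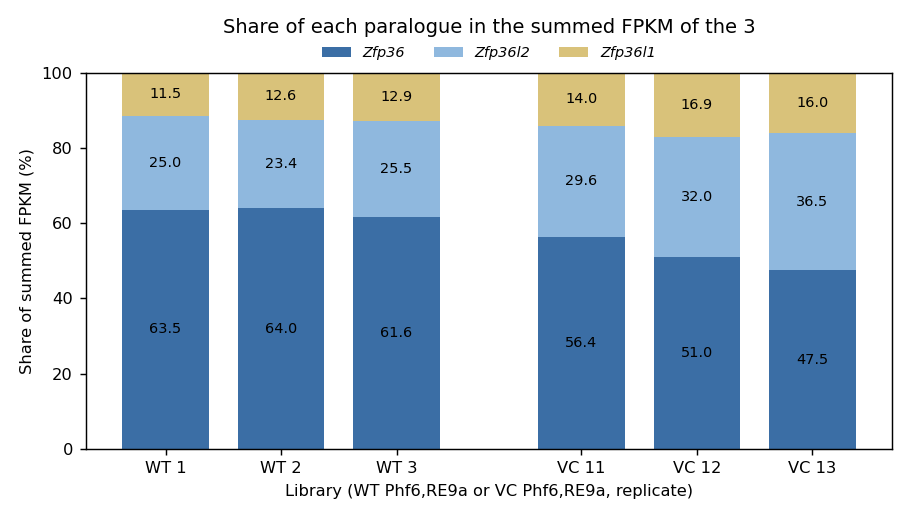
Share of *Zfp36*, *Zfp36l2* and *Zfp36l1* in their summed FPKM, as stacked bars in percent for each of the 6 libraries. *Zfp36* takes 61.6% to 64.0% in the *WT Phf6,RE9a* libraries and 47.5% to 56.4% in the *VC Phf6,RE9a* libraries.

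*Zc3h12a* (chromosome 4, 125118423 to 125127840, minus strand), which encodes the RNase Regnase-1, had 35.7, 26.3 and 14.3 FPKM in *WT Phf6,RE9a* and 11.6, 6.84 and 8.56 FPKM in *VC Phf6,RE9a* libraries. The groups did not overlap, although replicate 3 came near the highest *VC Phf6,RE9a* library. It was 2.80-fold lower in edgeR's fit (log2 fold change -1.48, SE 0.33, adjusted p = 0.00855). The log2 ratio of *Zc3h12a* to *Zfp36* overlapped between the groups (difference 0.43, 2-sided exact permutation p = 0.2). For the ubiquitin branch, the log2 ratio of *Tnip1* to *Tnfaip3* was -4.20, -3.88 and -3.02 in *WT Phf6,RE9a* and -2.50, -1.64 and -1.80 in *VC Phf6,RE9a* libraries. Every *VC Phf6,RE9a* library lay above every *WT Phf6,RE9a* library, a 3.30-fold shift toward the binding partner (2-sided exact permutation p = 0.1, adjusted 0.133).

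*Tnfaip2* (chromosome 12, 111442469 to 111455018, plus strand) encodes M-Sec, a protein of membrane protrusions that is induced by TNF and carries no A20 or ZFP36 function. It was the 1 gene of the 9 tested that was higher in *VC Phf6,RE9a* cells. It stood at 14.64, 11.86 and 13.98 FPKM in *WT Phf6,RE9a* and 29.8, 28.8 and 28.5 FPKM in *VC Phf6,RE9a* libraries. Every *VC Phf6,RE9a* library was above every *WT Phf6,RE9a* library, and the *VC Phf6,RE9a* libraries were close to each other (SE of the log2 fold change 0.096, adjusted p = 0.000140 from edgeR). *Tnfaip2* is a gene of myeloid cells, and the granulocyte and monocyte markers moved with it between the groups. Their part in its higher level was not tested.

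By level, the order in *WT Phf6,RE9a* cells was *Zfp36*, *Tnfaip3*, *Zfp36l2*, *Zfp36l1*, *Tnip1*, *Zc3h12a*, *Tnfaip2*, *Tnip2*, *Cyld* and *Tnip3*. The libraries of *Tnfaip3* and *Zfp36l2*, of *Tnip1* and *Zc3h12a*, of *Zc3h12a* and *Tnfaip2*, and of *Tnfaip2* and *Tnip2* overlapped in FPKM. Within the same library, *Zc3h12a* was above *Tnfaip2* in 3 of 3 *WT Phf6,RE9a* libraries, and each of the other 3 pairs kept its order in 2 of 3. In *VC Phf6,RE9a* cells the order was *Zfp36*, *Zfp36l2*, *Tnfaip3*, *Zfp36l1*, *Tnfaip2*, *Tnip1*, *Zc3h12a*, *Cyld*, *Tnip2* and *Tnip3*, and the neighbours *Zfp36l2* and *Tnfaip3*, *Tnfaip3* and *Zfp36l1*, and *Cyld* and *Tnip2* overlapped. Here *Zfp36l2* was above *Tnfaip3* in 3 of 3 libraries, and the other two pairs kept their order in 2 of 3.

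Within the groups, the same libraries were often the lowest or the highest for the inhibitor genes. By log2 CPM, *WT Phf6,RE9a* replicate 3 was the lowest of its group for 6 of the 9 tested genes, namely *Tnfaip3*, *Tnip2*, *Zfp36*, *Zfp36l1*, *Zfp36l2* and *Zc3h12a*. *VC Phf6,RE9a* replicate 11 was the highest of its group for 8 of the 9, with *Cyld* as the exception. Immediate-early genes, which respond within minutes to stimulation and also to handling of cells, were followed beside them. Of 10 tested, 7 were lower and 0 higher in *VC Phf6,RE9a* cells, against 22.7% and 21.5% of all genes, with a median log2 fold change of -1.08. Their summed level was 23664 to 37182 CPM in *WT Phf6,RE9a* and 11341 to 17675 CPM in *VC Phf6,RE9a* libraries. *Fos* (log2 fold change -1.87, adjusted p = 0.000614), *Fosb* (-1.53, adjusted p = 0.00447), *Egr2* (-2.36, adjusted p = 0.000492) and *Nr4a1* (-2.35, adjusted p = 0.00445) were lower, while *Jun* had -0.67 (adjusted p = 0.169 from edgeR). *Fos* had 2082, 3017 and 1737 FPKM in *WT Phf6,RE9a* and 735, 583 and 541 FPKM in *VC Phf6,RE9a* libraries, so replicate 3 was the lowest and replicate 11 the highest of its group. Over the 10 genes, replicate 3 was the lowest *WT Phf6,RE9a* library for 8, with replicate 2 the lowest for *Jun* and *Egr2*, and replicate 11 was the highest *VC Phf6,RE9a* library for 9, with replicate 12 the highest for *Nr4a1*. Across all genes tested, replicate 3 was also the *WT Phf6,RE9a* library most like the *VC Phf6,RE9a* libraries. Pearson's r of log2 CPM was 0.901 to 0.909, against 0.872 to 0.882 for replicates 1 and 2. The share of all genes with these same extremes was not counted. Any part of a response to stimulation or handling, and of the differing cell markers, in the lower levels of the inhibitors was not tested.

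**Figure D4:**
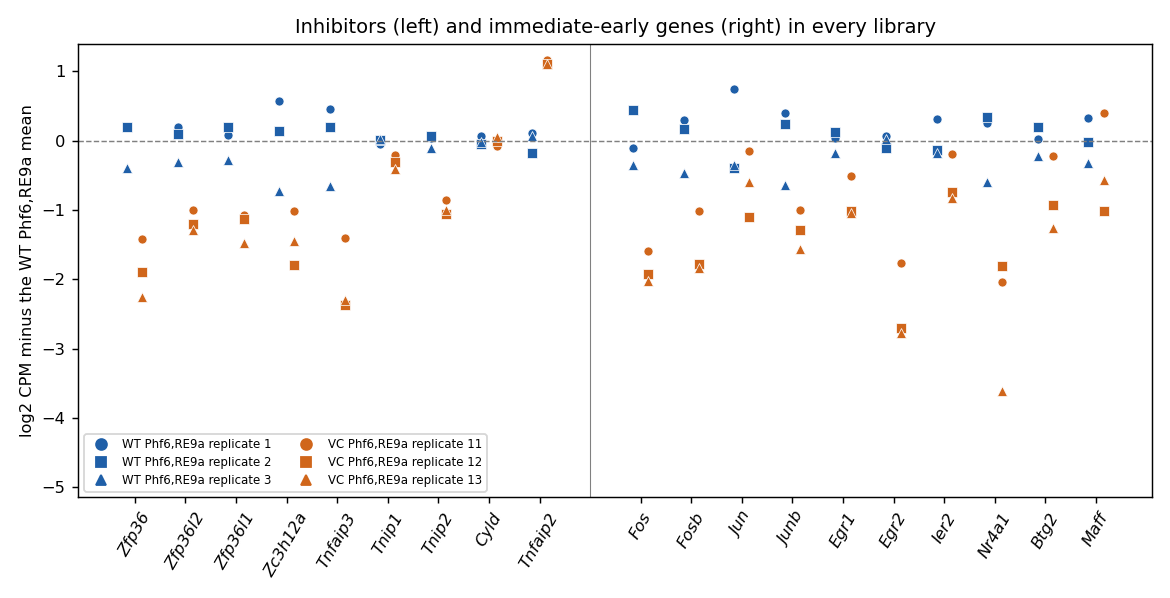
Log2 CPM of each inhibitor gene (left) and each immediate-early gene (right) minus its mean over the *WT Phf6,RE9a* libraries, for all 6 libraries. Replicate 3 lies lowest of the *WT Phf6,RE9a* libraries and replicate 11 highest of the *VC Phf6,RE9a* libraries for *Tnfaip3*, *Zfp36* and *Fos*.

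Among the relatives of the inhibitors, by sequence or by name, 3 genes were lower. Of 13 relatives, 9 were tested, with 3 lower (against 22.7% of all genes), 0 higher and a median log2 fold change of -0.018. *Zc3h12c*, a Regnase paralogue, was lower at 12.8 ± 3.40 against 4.69 ± 0.207 FPKM (SD, n = 3; log2 fold change -1.44, adjusted p = 0.000714), and *Tnfaip8*, a regulator of apoptosis, was lower at 12.4 against 5.40 FPKM (-1.19, adjusted p = 0.000298). *N4bp1*, an inhibitor of NF-κB signaling with an RNase domain of the Regnase kind, was lower by a smaller amount (-0.54, adjusted p = 0.00166 from edgeR). *Tnfaip1* (log2 fold change -0.53, adjusted p = 0.0979), *Otud7b* (0.19, adjusted p = 0.0769), *Tnfaip8l1* (0.22, adjusted p = 0.52), *Tnfaip8l2* (0.60, adjusted p = 0.248), *Zc3h12b* (0.061, adjusted p = 0.895) and *Zc3h12d* (-0.018, adjusted p = 0.986) did not pass edgeR's threshold. *Tnfaip6*, *Tnfaip8l3*, *Zfp36l3* and *Otud7a* had too few counts to be tested.

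The enzymes around A20 had small differences. Of 14 genes that work with A20 or make and remove linear ubiquitin, 5 were lower and 2 higher, against 22.7% and 21.5% of all genes, with a median log2 fold change of -0.092. At 2-fold, 0 were lower and 0 higher, against 11.5% and 9.95% of all genes. *Itch*, a ubiquitin ligase that binds A20, had a log2 fold change of -0.50 (adjusted p = 0.00348), and *Tax1bp1*, an A20 adaptor, had -0.59 (adjusted p = 0.00282). *Optn*, a ubiquitin-binding adaptor, was also lower (-0.27, adjusted p = 0.0469). *Otulin*, which cleaves linear chains, was higher (0.55, adjusted p = 0.00385), and *Rbck1*, a subunit of the linear ubiquitin ligase, was not called (0.11, adjusted p = 0.28 from edgeR). The count of lower genes was 3 without *VC Phf6,RE9a* replicate 11 or replicate 12 or at an adjusted p under 0.01, and 2 when counts were scaled by library size alone. Over all genes, lower calls went from 3213 to 2511 without replicate 11, 2574 without replicate 12 and 2474 with library size alone.

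Genes of mRNA decay and of RNA binding had a median near that of all genes. Of 28 genes of deadenylation, decapping and RNA binding, 5 were lower and 4 higher, against 22.7% and 21.5% of all genes, with a median log2 fold change of -0.016. At 2-fold, 0 were lower and 0 higher, against 11.5% and 9.95% of all genes. The lower ones included *Cnot6l*, a deadenylase (-0.74, adjusted p = 0.000392), and *Dcp1a*, a decapping cofactor (-0.78, adjusted p = 0.000543), and the higher ones *Upf1*, an RNA helicase of mRNA decay (0.55, adjusted p = 0.000990 from edgeR). *Ddx6*, an abundant decapping cofactor, stood at 46.7 against 48.7 FPKM and *Khsrp*, another protein that binds AU-rich elements, at 51.2 against 54.5 FPKM, and neither was called. The count of lower genes was 3 without *WT Phf6,RE9a* replicate 1, and 2 without any 1 of the *VC Phf6,RE9a* replicates 11, 12 or 13. It was 3 with limma, 2 at an adjusted p under 0.01, and 2 when counts were scaled by library size alone, which also raised the count of higher genes to 7.

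The mRNAs known as targets of ZFP36 or Regnase-1 were mostly lower, as were the inhibitors. Of 24 listed, 18 were tested, with 13 lower, 2 higher and a median log2 fold change of -2.85, against 22.7% lower and 21.5% higher among all genes. Some could pass the count filter through the *WT Phf6,RE9a* group alone, such as *Il6* and *Lif*, with 5 and 4 counts in *VC Phf6,RE9a* replicate 13. With at least 10 counts in every library, 14 were tested, with 10 lower and 2 higher. Of all 12087 genes tested under that filter, 2717 were lower and 2565 higher. *Il6* and *Tnf*, inflammatory cytokines, stood at 12.2 against 0.343 FPKM (-5.13, adjusted p = 7.22e-05) and 26.8 against 1.26 FPKM (-4.39, adjusted p = 0.000198). *Lif*, a cytokine of the same family as *Il6*, had 48.0, 14.5 and 24.2 FPKM in *WT Phf6,RE9a* and at most 0.186 FPKM in *VC Phf6,RE9a* libraries (-7.78, adjusted p = 9.69e-05). *Ier3*, an early response gene, was lower (-1.38, adjusted p = 0.000341) and *Pim1*, a survival kinase, was lower by less (-0.42, adjusted p = 0.0198). *Myc*, a growth regulator, was higher, at 24.2, 27.1 and 49.8 against 93.6, 93.1 and 103 FPKM (1.53, adjusted p = 0.00265 from edgeR). *Tfrc*, the transferrin receptor and the other target that was higher, is also an erythroid marker. Several of these targets are NF-κB targets too, and RNA levels do not separate synthesis from decay.

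Feedback inhibitors outside both branches included lower and higher genes. Of 15 tested of 16 listed, 7 were lower, 3 higher and 5 not called, against 22.7% lower and 21.5% higher among all genes, with a median log2 fold change of -0.48. *Nfkbia* and *Nfkbie*, which encode inhibitors that hold NF-κB in the cytoplasm, were lower (-1.23, adjusted p = 0.00860, and -1.14, adjusted p = 0.000159). *Dusp1*, a phosphatase of stress kinases, went from 1217 ± 136 to 551 ± 132 FPKM (SD, n = 3; -1.13, adjusted p = 0.00233), and *Socs1*, an inhibitor of cytokine receptor signaling, from 19.2 to 6.57 FPKM (-1.53, adjusted p = 0.000422). *Nlrc3* was lower too (-3.52, adjusted p = 0.000121). *Dusp2*, a phosphatase of the same family as *Dusp1*, was higher (0.74, adjusted p = 0.0448 from edgeR). The count of higher genes was 0 without *VC Phf6,RE9a* replicate 11 or at an adjusted p under 0.01. It was 1 at 2-fold, against 9.95% of all genes, or without *WT Phf6,RE9a* replicate 2. Over all genes, higher calls went from 3047 to 2179 without *VC Phf6,RE9a* replicate 11 and 2870 without *WT Phf6,RE9a* replicate 2.

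**Figure D5:**
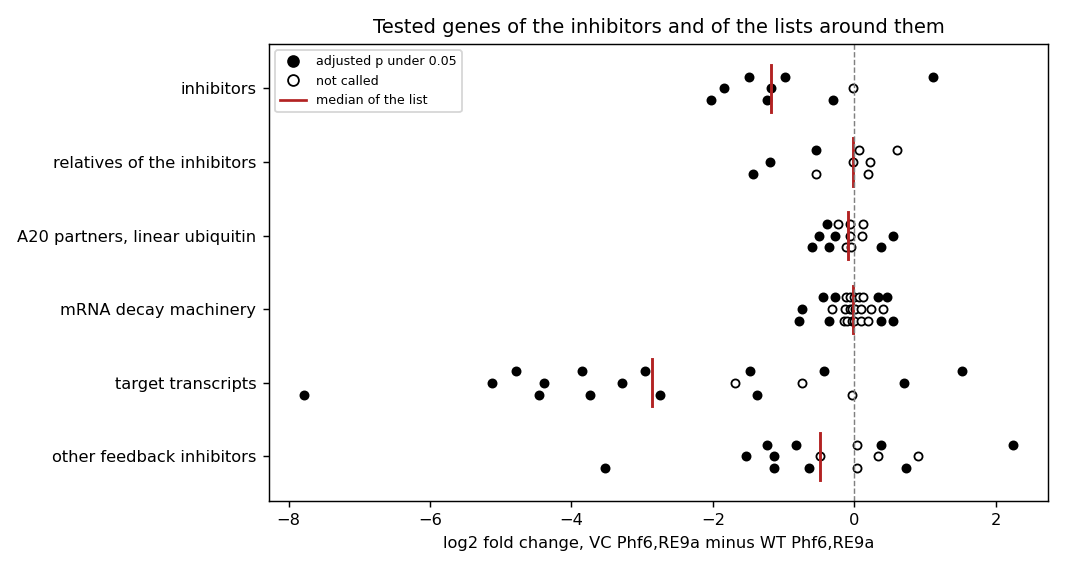
Log2 fold change, *VC Phf6,RE9a* minus *WT Phf6,RE9a*, of every tested gene of the inhibitors and of the 5 lists around them, with filled points for an adjusted p under 0.05 from edgeR and a red line at each median. The medians are -1.18 for the inhibitors, -0.018 for their relatives, -0.092 for the A20 partners, -0.016 for the decay machinery, -2.85 for the targets and -0.48 for the other feedback inhibitors.

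Genes on the opposite strand overlap *Tnfaip2*, *Tnip1*, *Cyld*, *Zfp36*, *Zfp36l1* and *Zfp36l2*, and the strandedness of the counts is not given in the sources used here, so reads of both strands cannot be told apart. Where such a neighbour had counts in the table, its highest count in any library was 143, for *Gm26669* beside *Zfp36l1*. The deposited counts per gene do not separate isoforms.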

How the data were processed

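RNA of GFP-sorted leukemia cells was prepared with the Illumina TruSeq RNA kit. The authors deposited raw counts of reads for each Ensembl gene, and FPKM values, which the authors computed from the counts, the gene length in the table (other unit, bases) and scaled library sizes. The authors' own comparison columns (mean normalized counts, fold changes and p-values) were not used. The submitters' processing notes name Bowtie 0.12.0 and the build mm8, without a role. The coordinates in the table fit GRCm38 instead: 54495 of 54532 genes were in GENCODE M21, 98.33% of them with the same start and end. How reads were counted is not given in the sources used here.

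Groups were taken from the labels. Counts were compared with edgeR 4.0.16 in R 4.3.3 (filterByExpr, TMM, quasi-likelihood test, Benjamini-Hochberg adjustment over 14169 genes, threshold 0.05). The standard error of a log2 fold change was taken as its size over the root of F. Log2 CPM used a prior count of 2. The limit behind a count of 0 (3 counts) was 0.175 to 0.204 CPM. No pair of libraries within a group was alike to within sampling (chi-square per gene 10.7 to 41.3), with Pearson's r of log2 CPM across genes of 0.975 to 0.988, against 0.872 to 0.909 between groups. Ratios of FPKM were compared with 2-sided exact permutation tests. Motifs were searched in RefSeq promoter sequences (GRCm38.p6). The test was tried on simulated data. Figures were drawn with matplotlib 3.10.9.

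The genes and lists were chosen with earlier results of these data known. Named are all 10 inhibitors and their relatives, *Phf6*, and in each further list the 3 genes with the smallest p and the 3 with the highest mean FPKM; for cell markers mainly summed levels are printed. *Itgam*, *Mpo* and *Tfrc* were added where a result touched them. Alternatives tried were scaling by RLE, the tool DESeq2 1.42.0, a minimum of 10 counts in all libraries, no count filter, limma 3.58.1 on log2(FPKM + 1), each library left out, at least 2-fold, and an adjusted p under 0.01. Scaling by library size alone was added after the data were seen.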

Additional observations from a re-analysis of the deposited data

How the results depend on the processing

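No paired analysis was possible because the groups share no replicate number. *Tnfaip3*, *Tnip2*, *Zfp36*, *Zfp36l1*, *Zfp36l2*, *Zc3h12a* and *Tnfaip2* kept their direction and their call under all 12 alternatives run on each, which were the other tools, scalings and filters and each library left out. *Tnip1* kept its direction under all 12 and its call under 9, with values between -0.35 and -0.16. *Cyld*, which was not called, changed sign to 0.14 with library size alone and ran from -0.047 to 0.026 with each library left out, with a positive sign without *WT Phf6,RE9a* replicate 1 (0.020) or without *VC Phf6,RE9a* replicate 11 (0.026). The cause was not tested. Of the inhibitors, 6 were lower with library size alone, without *VC Phf6,RE9a* replicate 12 or 13, or at an adjusted p under 0.01, and 5 at 2-fold. With each library left out, the log2 fold change lay between -2.08 and -1.66 for *Zfp36*, -1.78 and -1.17 for *Zc3h12a*, and 1.02 and 1.17 for *Tnfaip2*. The 4 ratios kept their direction when each library was left out.

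Of the cell markers, the macrophage genes had 1 higher instead of 2 without *WT Phf6,RE9a* replicate 1, without *VC Phf6,RE9a* replicate 11 or 12, or with no count filter. The same count of 1 was left at 2-fold, against 9.95% of all genes, or at an adjusted p under 0.01. With at least 10 counts in every library, 1 B cell marker was tested, which was higher, and 0 T cell markers were tested. DESeq2 tested 26042 genes and called 3383 lower and 3055 higher. *Tnip3*, tested without a count filter, had an adjusted p of 0.125 from edgeR. Depth limits *Tnip3* and the other genes that were not tested, and with 3 libraries per group no exact test of a ratio could go under 0.1.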
